A study of Mus musculus with 32 samples.

Results

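The genes described here encode the proteins of the cytosolic ribosome of the mouse. They were every gene of the deposited table whose symbol begins with Rpl or Rps and a digit, without the S6 kinases (Rps6k), together with Rplp0, Rplp1, Rplp2 and Rpsa. The rule used symbols only and no measured value. It took 84 of the 17586 genes. Of these, 42 encode proteins of the large subunit, 30 proteins of the small subunit and 3 proteins of the stalk, so that 75 are canonical ribosomal protein genes. The other members were 5 paralogues (Rpl22l1, Rpl39l, Rpl36al, Rps27l and Rpl7l1), 3 symbols of pseudogene type (Rpl13a-ps1, Rpl34-ps1 and Rps19-ps3) and 1 gene, Rps19bp1, whose product binds a ribosomal protein without being one.

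RNA was measured in 32 libraries of cells sorted from mouse brain, 8 from each of 4 populations. Differentiated macrophages, undifferentiated macrophages and microglia of the tumour came from chimeric mice with a brain tumour grown from GL-261, a mouse glioma cell line. Normal microglia came from mice with neither tumour nor graft. In each population 4 libraries came from mice of the strain Pep3/CD45.1 and 4 from C57BL/6J mice, called WT, and in the tumour populations these were the recipients of grafts labelled WT into PEP-3 and PEP-3 into WT. No treatment beyond tumour and graft is named in the sample labels used. The labels used give no ages and no sorting gates, and nothing in them states that each library is a different mouse, so the p-values are based on spread between libraries that may be technical. Within each population the recipient strain went with 1 experiment number, and normal microglia (experiments 1 and 2) shared none with the tumour populations. Macrophages of both kinds came from experiment 3 in WT and 4 in Pep3 recipients, and tumour microglia from experiment 4 in WT and 3 in Pep3 recipients, so values of macrophages against tumour microglia within 1 strain compare different experiments, while the mean over both strains takes in both experiments. Strain and experiment, and tumour, graft and experiment in the comparison with normal microglia, therefore cannot be told apart. Strain means that of the recipient throughout, and whether cells of a tumour library came from graft or recipient was not taken into account. If macrophages came from the graft and microglia from the recipient, values within 1 strain would compare cells of unlike strain. Values within 1 experiment would then compare cells of like strain.

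A ribosome joins a small subunit, which reads the message, to a large subunit, which forms the peptide bonds. Cells adjust the synthesis of these proteins together with that of ribosomal RNA when they start or stop growing. The messages of most ribosomal proteins begin with a run of pyrimidines, the 5′ terminal oligopyrimidine tract, through which the growth kinase mTOR controls their translation. In resident microglia and in macrophages entering a tumour, ribosomal protein messages are among the abundant transcripts, and their level in total RNA says nothing of how well they are translated.

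The deposited values were signed scores with a mean of 0 for every gene, on a scale that was not stated. Within each recipient strain the mean was 0 as well. They give no expression levels and no fold changes, and levels of different genes cannot be compared. Sequencing depth is unknown. Differences below are in units of the deposited scale with ± 1 standard error, for 8 libraries against 8, from a limma model of the whole table. It fitted a mean per population and strain together with 11 sample directions along which the deposited table holds no variation. A gene was called at a Benjamini-Hochberg adjusted p below 0.05 over all genes. In 9 libraries under 50% of the library's own direction lay outside these: 4 of normal microglia, 1 of tumour microglia, 2 of differentiated and 2 of undifferentiated macrophages. In bulk samples, fewer cells of a type and less RNA per cell cannot be told apart.

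The populations carried the markers of their labels. The mean score of 10 microglia markers was -2.37 to -0.52 in differentiated macrophages, -2.37 to -0.86 in undifferentiated macrophages, 0.67 to 1.58 in tumour microglia and 1.49 to 2.54 in normal microglia. The mean score of 8 macrophage and monocyte markers was -0.01 to 2.35 in differentiated macrophages, 0.96 to 3.12 in undifferentiated macrophages, -1.88 to -1.003 in tumour microglia and -2.27 to -1.08 in normal microglia. Markers of other cells were also called in the macrophage populations, where 37% of all genes were called higher in differentiated and 36.7% in undifferentiated macrophages. Against tumour microglia, 3 of 4 glioma markers were called higher in differentiated and 3 of 4 in undifferentiated macrophages, as were 2 of 3 and 2 of 3 neuron markers, 3 of 4 and 3 of 4 astrocyte markers, 2 of 3 and 1 of 3 endothelial markers, 2 of 3 and 2 of 3 B cell markers, and 2 of 3 and 1 of 3 dendritic cell markers. In both comparisons 1 astrocyte marker was called lower, and 1 B cell marker was lower in undifferentiated macrophages. Once library medians were subtracted, the higher calls in differentiated and undifferentiated macrophages were 3 and 3 glioma, 0 and 0 neuron, 1 and 1 astrocyte, 0 and 0 endothelial, 1 and 2 B cell and 1 and 0 dendritic cell markers. In each comparison 1 astrocyte and 1 B cell marker were then called lower. Of all genes, 19.8% were then higher and 19.2% lower in differentiated macrophages, and 16.7% and 16.3% in undifferentiated macrophages. The mean score of the 4 glioma markers was 0.29 to 1.25 in differentiated macrophages, 0.33 to 1.44 in undifferentiated macrophages, -1.93 to -0.06 in tumour microglia and -1.22 to 0.38 in normal microglia. Signed scores have no level of 0, and the part of these other cells in the results below was not tested.

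The start windows of members that carried called differences are shown because messages of this class carry a pyrimidine run at their start. The 30 bases centred on the annotated start are given 5′ to 3′ on the gene's strand, from RefSeq on GRCm38.p6, with the run in capitals. Where the table held 2 starts for a gene, the start with the longer run is shown.
Rpl38, chr11:114668565-114668594, plus strand: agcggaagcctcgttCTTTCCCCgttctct
Rps9, chr7:3704026-3704055, plus strand: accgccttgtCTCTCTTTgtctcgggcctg
Rplp2, chr7:141447636-141447665, plus strand: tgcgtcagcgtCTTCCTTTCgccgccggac
Rpl7a, chr2:26910792-26910821, plus strand: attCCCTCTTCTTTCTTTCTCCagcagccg
Rpl15, chr14:18270972-18271001, minus strand: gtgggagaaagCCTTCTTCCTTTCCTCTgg
Rps27l, chr9:66946071-66946100, plus strand: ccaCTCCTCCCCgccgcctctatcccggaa
Rpl10a, chr17:28328456-28328485, plus strand: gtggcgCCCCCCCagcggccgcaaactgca
The search took any run of at least 7 C or T beginning with C on the sense strand, touching the 10 bases on either side of the start. Of the members, 60 were matched in the promoter table, and 32 of them (53.3%) held such a run, against 4907 of all 27025 genes of the table (18.2%). In other lists, 1 of 30 factors of ribosome assembly held it (3.33%), as did 6 of 24 initiation factors (25%) and 11 of 69 genes for proteins of the separate mitochondrial ribosome (15.9%). The difference between members with and without the run was not tested. In differentiated macrophages against tumour microglia the median was 0.58 over the 32 members with the run and 0.38 over the 28 without it, and in tumour microglia against normal microglia 0.40 with the run and 0.51 without it. In Rps27l and Rpl10a the run shown ends before the annotated start, so it is not part of the annotated message. The match describes these letters in this window and no factor's binding.

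As deposited, the ribosomal protein genes scored highest in differentiated macrophages and lowest in normal microglia, and with each library's median subtracted they scored highest in tumour microglia and again lowest in normal microglia. The mean over the 84 genes was 0.376 ± 0.159 in differentiated macrophages, 0.155 ± 0.131 in undifferentiated macrophages, -0.078 ± 0.322 in tumour microglia and -0.452 ± 0.264 in normal microglia (SD, n = 8 each). The libraries ran from 0.125 to 0.637 in differentiated macrophages, from -0.018 to 0.402 in undifferentiated macrophages, from -0.480 to 0.536 in tumour microglia and from -0.768 to -0.051 in normal microglia. Every macrophage library of either kind lay above every normal microglia library, while tumour microglia overlapped all other populations. Library 30, a tumour microglia library from a Pep3 recipient, held the upper end of that population. The whole table moved as well, since the median over all genes averaged 0.290 in differentiated macrophages, 0.289 in undifferentiated macrophages, -0.331 in tumour microglia and -0.142 in normal microglia. With each library's median subtracted, the mean member score was 0.086 ± 0.216 in differentiated macrophages, -0.134 ± 0.169 in undifferentiated macrophages, 0.253 ± 0.362 in tumour microglia and -0.311 ± 0.240 in normal microglia (SD, n = 8 each). Without library 30 tumour microglia averaged 0.153 ± 0.244, still the highest of the 4 means and within 1 SD of differentiated macrophages.

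**Figure D1:**
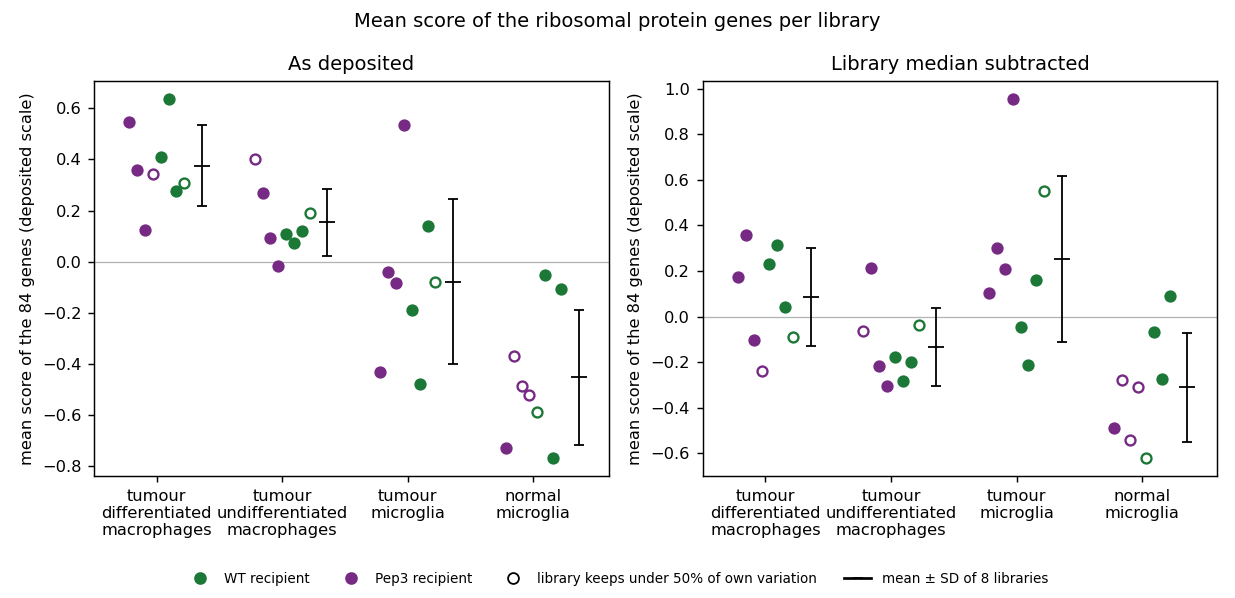
Mean score of the 84 genes in each library (vertical axis, deposited scale) by population, as deposited on the left and with each library's median over all genes subtracted on the right. Points are libraries coloured by recipient strain, open where under 50% of the library's variation was kept, and bars are the mean ± SD of 8 libraries. Normal microglia are lowest in both panels, at -0.452 and -0.311, while tumour microglia change place from -0.078 to 0.253.

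**Figure D2:**
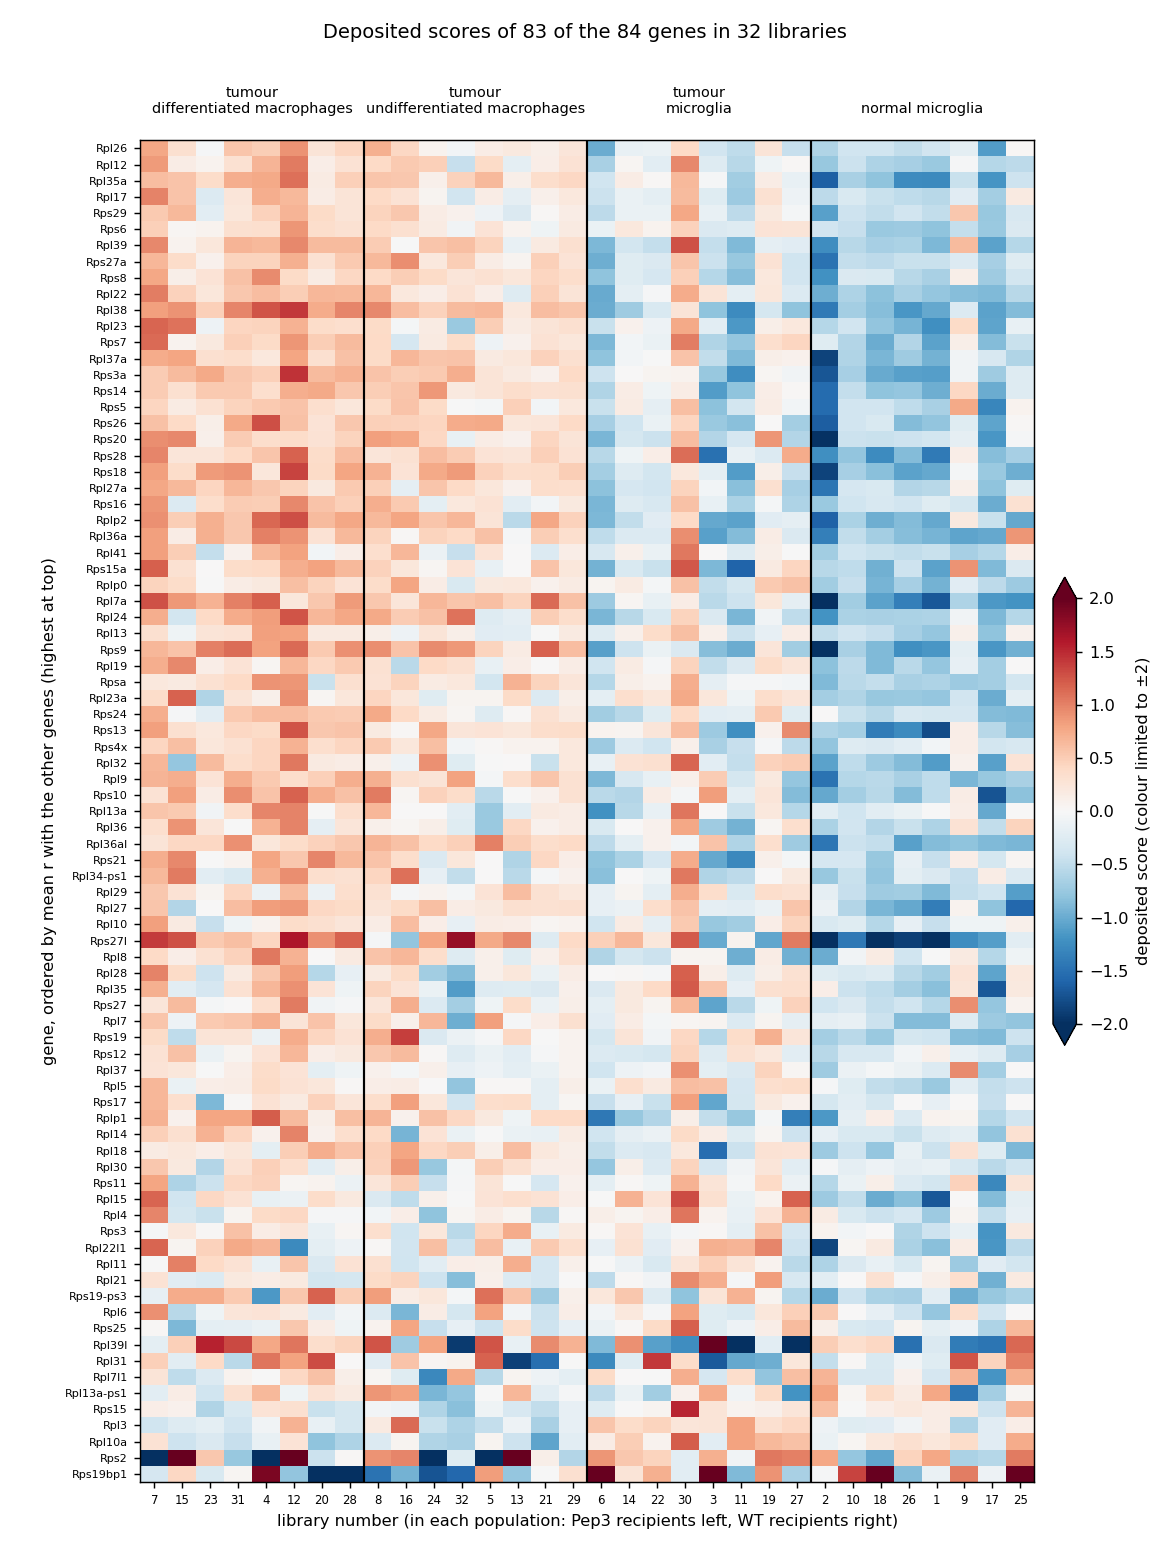
Deposited scores of 83 of the 84 genes (rows, ordered by their mean correlation with the other genes) in the 32 libraries (columns, grouped by population). Red is above and blue below the gene's mean of 0, with colour limited to ±2. As deposited, most rows share a pattern of red in macrophages and blue in normal microglia, and the rows at the foot, among them Rps2 and Rps19bp1, do not.

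Tumour microglia were set against normal microglia, a comparison in which tumour, graft and experiment cannot be told apart. Of the 84 members, 6 were called higher and 0 lower, which is 7.14% higher against 4.66% of all genes higher and 12% lower. The 6 were the paralogue Rps27l, the large-subunit genes Rpl15, Rpl7a, Rpl35a and Rpl23a, and the small-subunit gene Rps13. The fitted difference was positive for 75 of 84 members, with a median of 0.40 against -0.25 for all genes, and 21 members had an unadjusted p below 0.05. With library medians subtracted 23 members were called higher and 0 lower, with 27.4% of members higher against 7.72% of all genes higher and 7.60% lower. The members' own groups did not overlap for 2 genes, Rpl3 and Rps6, both higher, and for 0 in the lower direction, against 1.01% and 0.762% of all genes. Neither gene was called. Within the strains the covariate model left 3 residual degrees of freedom and called no member. In that model the median was -0.41 over members and -0.10 over all genes in WT mice, against 0.79 and -0.46 in Pep3 mice, so that in WT the members lay below all genes. Without covariates it was 0.25 over members and -0.10 over all genes in WT and 0.56 and -0.28 in Pep3 mice. Without library 1 of normal microglia no member was called, and without library 10, 18, 26 or 27 the count was 1, 2, 2 or 1. Markers were called in this comparison as well: 2 of 10 microglia markers lower, 2 of 8 macrophage and monocyte markers higher (Plac8 by 2.58 ± 0.62 and Ms4a4c by 2.34 ± 0.51) and 1 lower, 1 of 3 dendritic cell markers higher, 2 of 4 glioma, 1 of 4 astrocyte and 1 of 3 neuron markers lower, and 0 of 3 B cell and 0 of 3 endothelial markers. The part of those cells in the result was not tested.

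Differentiated macrophages were set against tumour microglia to compare macrophages with microglia of the tumour. As deposited, 16 members were called higher and 0 lower, 19% against 37% of all genes higher and 6.35% lower, and with library medians subtracted the split turned to 1 higher and 8 lower, against 19.8% and 19.2% of all genes. The median difference of the members was 0.51, below the 0.65 of all genes. The called genes were Rplp1 and Rplp2 of the stalk, Rpl38, Rpl24, Rpl7a, Rpl27a, Rpl9 and Rpl8 of the large subunit, and Rps9, Rps21, Rps18, Rps10, Rps3a, Rps26, Rps4x and Rps16 of the small subunit. In 8 members the groups did not overlap, with macrophages higher, against 7.09% of all genes, and in 0 with macrophages lower, against 1.31%. The difference between strains was called for 0 members, against 0.449% of all genes. Relative to the library median the called gene on the higher side was Rpl38, at 0.89 ± 0.28 (adjusted p = 0.017), and the lower ones were Rps19bp1, Rpl10a, Rpl3, Rps25, Rps15, Rpl15, Rpl21 and Rpl4. The order of the medians of members and all genes depended on strain and model. It was 0.30 over members and 0.37 over all genes in WT recipients and 0.97 and 0.70 in Pep3 recipients, and without covariates 0.61 and 0.60 in WT and 0.36 and 0.63 in Pep3 recipients. Without covariates and without the libraries that kept under 50% it was 0.55 over members and 0.51 over all genes. Within experiment 3 it was 0.45 over members and 0.64 over all genes, and within experiment 4 it was 0.54 and 0.61. Left-out libraries moved the count of higher members between 5, without undifferentiated macrophage library 29, and 27, without tumour microglia library 30.

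Undifferentiated macrophages were set against the same tumour microglia libraries, which both macrophage comparisons share. As deposited, 11 members were called higher and 1 lower, 13.1% and 1.19% against 36.7% and 5.19% of all genes, and with library medians subtracted 0 were higher and 18 lower, against 16.7% and 16.3%. The median difference was 0.21 for the members and 0.71 for all genes. The higher genes were Rps9, Rpl38, Rplp1, Rps18, Rplp2, Rps26, Rpl24, Rpl7a, Rpl36al, Rps27a and Rpl9, and the lower gene was Rpl10a. In 4 members the groups did not overlap, with macrophages higher (Rpl7a, Rps14, Rps18 and Rps3a), against 6.77% of all genes, and in 0 with macrophages lower, against 1.31%. The difference between strains was called for 0 members, against 0.00569% of all genes. The median over members was below that over all genes in each of these subsets, at -0.15 and 0.26 in WT and 0.67 and 0.86 in Pep3 recipients, at 0.30 and 0.61 in WT and 0.23 and 0.62 in Pep3 recipients without covariates, and at 0.17 and 0.63 within experiment 3 and 0.34 and 0.59 within experiment 4. The count of higher members ran from 2, without differentiated macrophage library 31, to 15 as single libraries were left out.

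Between differentiated and undifferentiated macrophages, 0 members were called in either direction and 0 had an unadjusted p below 0.05, with 0% of all genes called higher and 0.0114% lower. No member had groups without overlap, against 0% of all genes higher and 0.00569% lower. The fitted difference was positive in 71 of 84 members, with a median of 0.22 against -0.05 for all genes.

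**Figure D3:**
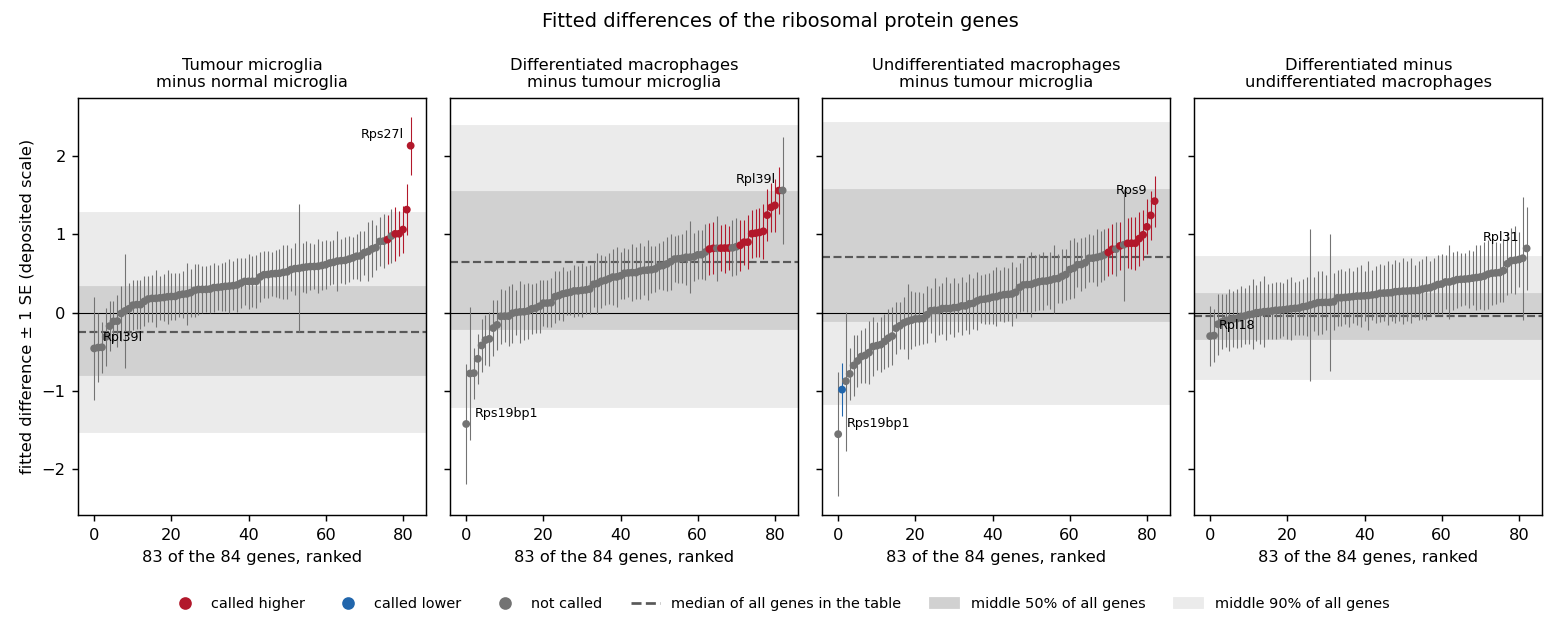
Fitted differences of 83 of the 84 genes (points, ± 1 SE, ranked from low to high) in the 4 comparisons, on the deposited scale. Red points were called higher, blue lower and grey not called; the dashed line is the median of all genes and the bands hold the middle 50% and 90% of all genes. In tumour against normal microglia most members lie above the all-gene median of -0.25, and in both macrophage comparisons most lie below medians of 0.65 and 0.71.

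The stalk proteins recruit translation factors to the ribosome, and Rplp1 and Rplp2 are held on it by Rplp0. Rplp1 scored 0.09, 0.67 and 1.22 (lowest, median and highest library) in differentiated macrophages, -0.08, 0.40 and 0.685 in undifferentiated macrophages, -1.43, -0.68 and 0.12 in tumour microglia and -1.15, -0.23 and 0.13 in normal microglia. Tumour microglia lay lowest and overlapped both macrophage populations near 0, where normal microglia also had libraries. Rplp1 was higher by 1.37 ± 0.34 in differentiated macrophages (adjusted p = 0.0023) and by 1.10 ± 0.35 in undifferentiated macrophages (adjusted p = 0.015) against tumour microglia. Rplp2 scored 0.49, 0.74 and 1.29 in differentiated macrophages, -0.54, 0.60 and 0.79 in undifferentiated macrophages, -1.06, -0.36 and 0.40 in tumour microglia and -1.62, -0.92 and 0.20 in normal microglia. Every differentiated macrophage library lay above every tumour microglia library. Of the undifferentiated macrophages, library 13 lay among the microglia, and library 5, at 0.25, lay below the highest tumour microglia library. Rplp2 was higher by 1.25 ± 0.33 in differentiated (adjusted p = 0.0041) and by 0.95 ± 0.35 in undifferentiated macrophages (adjusted p = 0.031) against tumour microglia, and 10 single libraries, when left out, ended the second call. Rplp0 was at 0.12 ± 0.30 in differentiated and 0.06 ± 0.31 in undifferentiated macrophages, and at 0.83 ± 0.29 in tumour against normal microglia (adjusted p = 0.051), where Rplp1 was at -0.44 ± 0.32 (adjusted p = 0.36). Relative to library medians Rplp0 was called higher in tumour against normal microglia, at 1.08 ± 0.30 (adjusted p = 0.018). With library medians subtracted neither Rplp1 (0.71 ± 0.30, adjusted p = 0.068) nor Rplp2 (0.58 ± 0.33, adjusted p = 0.16) was called in differentiated macrophages. The deposited means of Rplp1 differed between differentiated macrophages and tumour microglia by 1.31 in WT and 1.26 in Pep3 recipients, and those of Rplp2 by 1.59 and 0.97.

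Among large-subunit genes Rpl38 had the largest called difference between macrophages and tumour microglia. The mouse mutant Tail-short carries a mutation in Rpl38 and shows altered translation of Hox messages. Rpl38 scored 0.48, 0.94 and 1.41 in differentiated macrophages, 0.20, 0.62 and 0.96 in undifferentiated macrophages, -1.26, -0.75 and 0.25 in tumour microglia and -1.41, -0.94 and -0.27 in normal microglia. All differentiated macrophage libraries lay above all microglia libraries, and of the undifferentiated ones only the lowest fell below the highest tumour microglia library. The difference was 1.56 ± 0.30 in differentiated (adjusted p = 0.00035) and 1.24 ± 0.32 in undifferentiated macrophages (adjusted p = 0.0034), and both calls held without any single library. Within strains the deposited means differed by 1.90 in WT and 1.23 in Pep3 recipients for differentiated macrophages, and by 1.32 and 1.11 for undifferentiated macrophages. Between tumour and normal microglia the fitted difference was 0.32 ± 0.29 (adjusted p = 0.48). With library medians subtracted the call in undifferentiated macrophages was lost (0.52 ± 0.30, adjusted p = 0.17).

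Rpl15 and Rpl10a had other patterns. Rpl15 scored -0.40, 0.25 and 1.16 in differentiated macrophages, -0.51, 0.12 and 0.33 in undifferentiated macrophages, -0.125, 0.30 and 1.31 in tumour microglia and -1.70, -0.78 and 0.01 in normal microglia. Normal microglia lay lowest, and their highest libraries overlapped the other populations. Rpl15 was higher by 1.32 ± 0.33 in tumour against normal microglia (adjusted p = 0.0093), a call lost without library 1, 10, 18 or 27, and against tumour microglia it was at -0.34 ± 0.34 in differentiated and -0.55 ± 0.36 in undifferentiated macrophages. Its deposited means differed between tumour and normal microglia by 1.05 in WT and 1.33 in Pep3 mice. The difference fitted with covariates in WT mice alone was negative and not called, with 3 residual degrees of freedom. Rpl10a, a protein of the mobile L1 stalk of the large subunit, scored -0.80, -0.36 and 0.30 in differentiated macrophages, -1.05, -0.35 and 0.06 in undifferentiated macrophages, -0.22, 0.54 and 1.21 in tumour microglia and -0.23, 0.22 and 0.75 in normal microglia. It ran against most members, with microglia above macrophages. Rpl10a was lower, at -0.99 ± 0.34, in undifferentiated macrophages (adjusted p = 0.024), a call lost without library 21, 27, 28, 29, 30 or 31, and was at -0.78 ± 0.33 in differentiated macrophages (adjusted p = 0.059). With library medians subtracted it was called lower in both, at -1.44 ± 0.31 in differentiated and -1.71 ± 0.33 in undifferentiated macrophages.

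Rpl7a was called in 3 comparisons. It scored 0.23, 0.86 and 1.28 in differentiated macrophages, 0.24, 0.57 and 1.13 in undifferentiated macrophages, -0.73, -0.16 and 0.22 in tumour microglia and -2.03, -1.17 and -0.62 in normal microglia. Both macrophage populations lay wholly above tumour microglia, which overlapped normal microglia at the lower end. The differences were 1.02 ± 0.31 (adjusted p = 0.010) and 0.89 ± 0.32 (adjusted p = 0.030) in differentiated and undifferentiated macrophages against tumour microglia, and 1.06 ± 0.30 (adjusted p = 0.017) in tumour against normal microglia. Of these calls, the last held with library medians subtracted, at 1.31 ± 0.29, and the others did not. Of its 31-base stretches, 85.0% also occur in transcripts of other annotated genes, so its reads are hard to separate from those of near-identical copies. Among 83 members with an annotated transcript, 82 shared some stretch with another gene and 27 shared over 50%. The shares were 16.1% in Rps27l, 17% in Rps9, 24.2% in Rpl15, 31.6% in Rpl38, 34.9% in Rplp2, 68.5% in Rpl10a and 75.1% in Rplp1.

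Rps9, the counterpart of bacterial S4, a protein that affects decoding accuracy, had the largest called differences of the small subunit. It scored 0.52, 0.86 and 1.14 in differentiated macrophages, 0.17, 0.74 and 1.17 in undifferentiated macrophages, -1.08, -0.56 and 0.25 in tumour microglia and -1.98, -1.06 and -0.19 in normal microglia. Differentiated macrophages did not overlap either microglia population, and of the undifferentiated macrophages only the lowest library fell below the highest tumour microglia library. The difference was 1.35 ± 0.31 in differentiated (adjusted p = 0.0015) and 1.43 ± 0.33 in undifferentiated macrophages (adjusted p = 0.0015), and both calls held without any single library. With library medians subtracted it was at 0.68 ± 0.29 in differentiated (adjusted p = 0.064) and 0.70 ± 0.30 in undifferentiated macrophages (adjusted p = 0.074), and neither was called. Within strains its deposited means differed by 1.42 in WT and 1.32 in Pep3 recipients for differentiated macrophages, and by 1.17 and 1.31 for undifferentiated macrophages. For undifferentiated macrophages the difference fitted with covariates in WT recipients alone was negative and not called, with 3 residual degrees of freedom.

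Rps6, Rps19, Rpsa, Rps14, Rpl5 and Rpl11 were not called in any comparison as deposited; with library medians subtracted Rps6, Rps19, Rpsa and Rpl5 were called higher in tumour against normal microglia, and Rpl5 lower in undifferentiated macrophages. Rps6, the substrate of the S6 kinases, scored -0.28, 0.14 and 0.47 in tumour microglia and -0.81, -0.60 and -0.29 in normal microglia, without overlap, and its fitted difference was 0.70 ± 0.27 (adjusted p = 0.073). Rps19, whose mutation causes Diamond-Blackfan anaemia in humans, was at 0.73 ± 0.32 (adjusted p = 0.13) and Rpsa, also known as the laminin receptor, at 0.67 ± 0.30 (adjusted p = 0.13) in the same comparison. Rps14, lost in the human 5q deletion syndrome, lay wholly above tumour microglia in both macrophage populations, with differences of 0.69 ± 0.31 in differentiated (adjusted p = 0.077) and 0.74 ± 0.33 in undifferentiated macrophages (adjusted p = 0.073). Rpl5 and Rpl11, which bind 5S RNA and can hold the p53 regulator Mdm2, were at 0.66 ± 0.28 (adjusted p = 0.11) and 0.33 ± 0.30 (adjusted p = 0.49) in tumour against normal microglia.

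**Figure D4:**
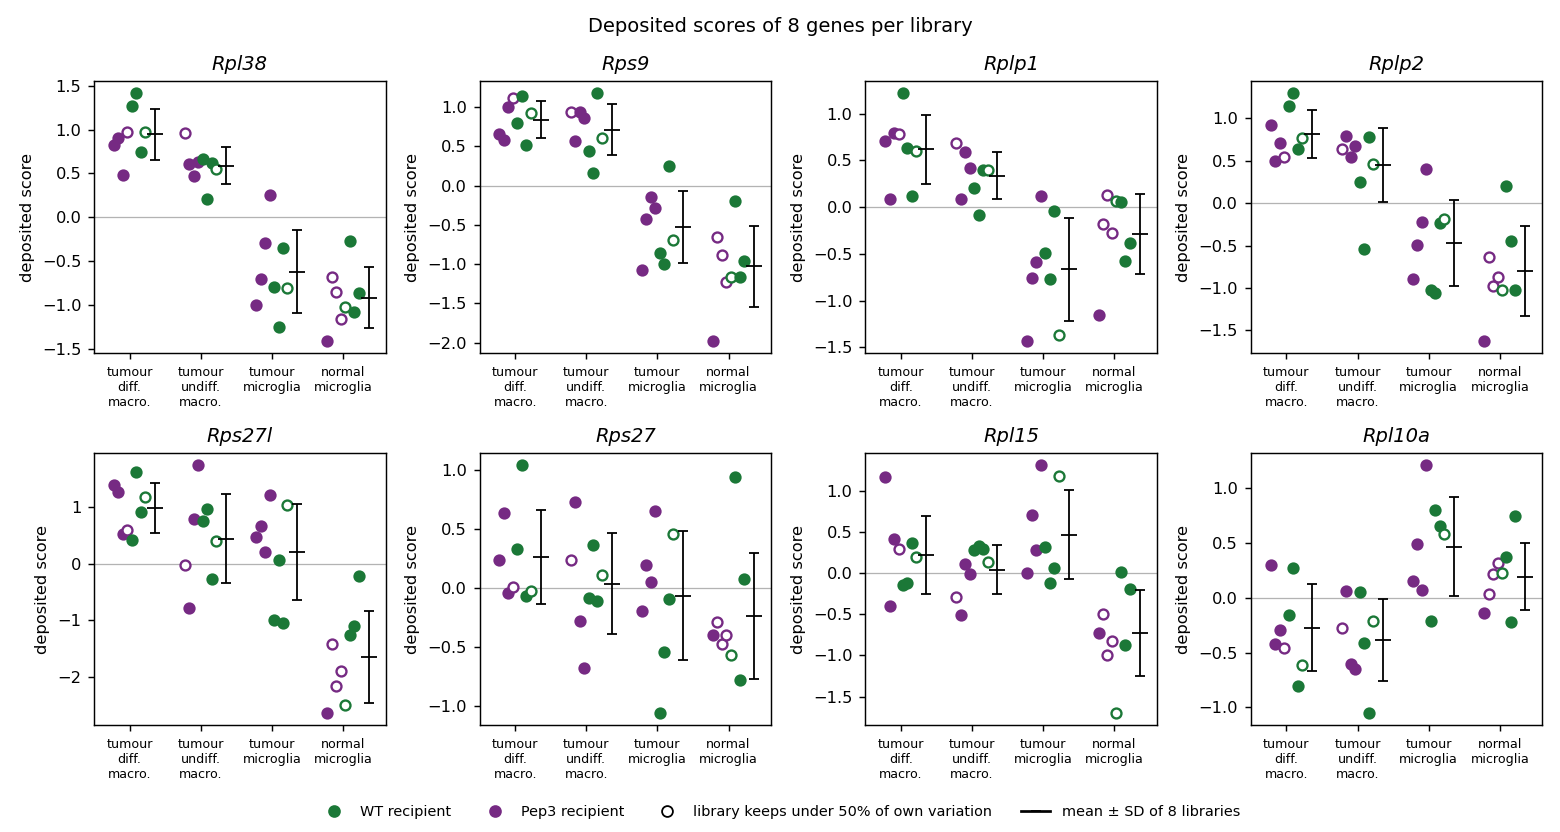
Deposited scores (vertical axis) of 8 genes in each library by population. Points are libraries coloured by recipient strain, open where under 50% of the library's variation was kept, and bars are the mean ± SD of 8 libraries. As deposited, Rpl38 and Rps9 are high in macrophages, Rps27l is low in normal microglia at a median of -1.66, its paralogue Rps27 is not set apart by population, and Rpl10a is lowest in macrophages.

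Rps27l, a paralogue of Rps27 and a target of p53, had the largest difference of any member between tumour and normal microglia. It scored 0.42, 1.05 and 1.62 in differentiated macrophages, -0.78, 0.58 and 1.74 in undifferentiated macrophages, -1.05, 0.35 and 1.23 in tumour microglia and -2.64, -1.66 and -0.21 in normal microglia. Normal microglia lay lowest, below all differentiated macrophage libraries, and only their highest library overlapped the lowest of undifferentiated macrophages and tumour microglia. The difference was 2.14 ± 0.37 (adjusted p = 0.00077), and the call was lost without library 1 or 10 of normal microglia. It differed between strains, by -4.63 ± 1.17 in WT minus Pep3 mice (adjusted p = 0.028), a test that called 1 member and 5.03% of all genes. The deposited means differed by 1.03 in WT and 2.68 in Pep3 mice. Fitted within each strain the difference was -0.50 in WT and 4.01 in Pep3 mice, neither called. Normal microglia libraries 10, 18 and 26, from Pep3 mice, kept 8.60%, 23.9% and 22.8% of their own variation. Library 1, from a WT mouse, kept 33.1%, so the strain difference rests on little independent variation. Against tumour microglia Rps27l was at 0.54 ± 0.38 in differentiated and 0.05 ± 0.40 in undifferentiated macrophages.

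Rps27, a zinc-finger protein of the small subunit, was not called in any comparison. It scored -0.07, 0.12 and 1.04 in differentiated macrophages, -0.68, 0.01 and 0.73 in undifferentiated macrophages, -1.06, -0.02 and 0.65 in tumour microglia and -0.78, -0.40 and 0.94 in normal microglia. All populations overlapped, and the difference between tumour and normal microglia was 0.28 ± 0.34 (adjusted p = 0.60). Population held 14% of the variance of Rps27 over the libraries and 67.1% of that of Rps27l. Of the 31-base stretches of each gene's transcripts, 50.1% in Rps27 and 16.1% in Rps27l also occur in transcripts of other annotated genes. The coding sequences of the paralogues are shown because they bear on how far reads of this pair can be told apart. They come from GENCODE transcripts on GRCm38, of genes at chr3:90212522-90213651 (minus strand) and chr9:66946086-66949516 (plus strand), with capitals at the positions where they differ.
Rps27: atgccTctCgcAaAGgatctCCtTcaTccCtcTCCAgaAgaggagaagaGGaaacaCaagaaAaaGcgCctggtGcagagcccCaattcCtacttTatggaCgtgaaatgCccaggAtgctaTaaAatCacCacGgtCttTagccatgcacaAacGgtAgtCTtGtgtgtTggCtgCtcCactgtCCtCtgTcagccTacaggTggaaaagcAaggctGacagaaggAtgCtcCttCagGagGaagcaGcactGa
Rps27l: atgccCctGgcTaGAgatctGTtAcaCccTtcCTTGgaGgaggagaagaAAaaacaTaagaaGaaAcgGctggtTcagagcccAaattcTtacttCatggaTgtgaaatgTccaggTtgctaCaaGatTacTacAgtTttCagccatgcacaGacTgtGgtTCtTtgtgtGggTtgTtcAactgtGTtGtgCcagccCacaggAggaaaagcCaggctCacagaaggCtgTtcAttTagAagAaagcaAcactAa
Both are 255 bases long, and 194 positions (76.1%) are identical, with the 61 differing positions spread over the whole length.

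Of the other paralogues, Rpl36al was called as deposited. Rpl36al was higher by 0.85 ± 0.31 in undifferentiated macrophages against tumour microglia (adjusted p = 0.031), a call lost with library medians subtracted (0.13 ± 0.29), and Rpl36a was at 0.55 ± 0.38 (adjusted p = 0.25). In tumour against normal microglia Rpl36al was called higher with medians subtracted, at 0.97 ± 0.26 (adjusted p = 0.017). Rpl39l was at 1.56 ± 0.68 in differentiated macrophages (adjusted p = 0.068) with a wide spread, from -2.74 to 2.01 in tumour microglia alone, and Rpl39 at 0.84 ± 0.37 (adjusted p = 0.066). Rpl22l1, whose message is bound and repressed by Rpl22 in the mouse, was at 0.78 ± 0.38 (adjusted p = 0.16) in tumour against normal microglia, and Rpl22 at 0.68 ± 0.29 (adjusted p = 0.11). After subtraction of medians Rpl22 was called higher there, at 0.93 ± 0.28 (adjusted p = 0.030), and Rpl22l1 was at 1.03 ± 0.35 (adjusted p = 0.0505). Rpl7l1 was at -0.51 ± 0.40 in undifferentiated macrophages (adjusted p = 0.32), and Rpl7 at 0.17 ± 0.32 (adjusted p = 0.70); with library medians subtracted Rpl7l1 was called lower there, at -1.23 ± 0.39.

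The members varied together and varied little. Over the 32 libraries the mean Pearson r between 2 members was 0.433, and 0.484 between canonical members, against 0.091 between any 2 genes of the table. Within populations and strains it was 0.314 against 0.050. These are descriptions over libraries that share their processing, and 87.98% of the 3486 pairs had r above 0. The closest pair was Rps9 and Rps18 at 0.949 and the most opposed Rps19bp1 and Rpl18 at -0.727. The median SD of a member was 0.538 against 0.890 for all genes, and 78 of 84 members lay below the median of all genes. Population held 41.1% of the members' pooled variance and 41.3% of that of all genes, a measure in which genes of wide SD weigh most. By gene it ran from 3.41% in Rpl13a-ps1 to 85.7% in Rpl38. Among members of wide SD it was 6.36% in Rps2, 22.4% in Rps19bp1 and 67.1% in Rps27l. Rpl26, a large-subunit protein, had the highest mean r with the other members at 0.615, and Rps19bp1 the lowest at -0.204.

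A few members stood outside this pattern. Rps2 had an SD of 1.34 and a mean r of -0.077 with the other members, and Rps19bp1 an SD of 1.49. Rpl39l and Rps27l also had SDs above 1, at 1.22 and 1.23. Rpl10a and Rpl3, a large-subunit protein near the peptidyl transferase centre, had mean r of -0.063 and -0.008 at SDs of 0.508 and 0.436, so that their low correlation did not come with a wide spread. Within populations and strains the mean r was 0.356 for Rpl10a and -0.007 for Rpl3.

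**Figure D5:**
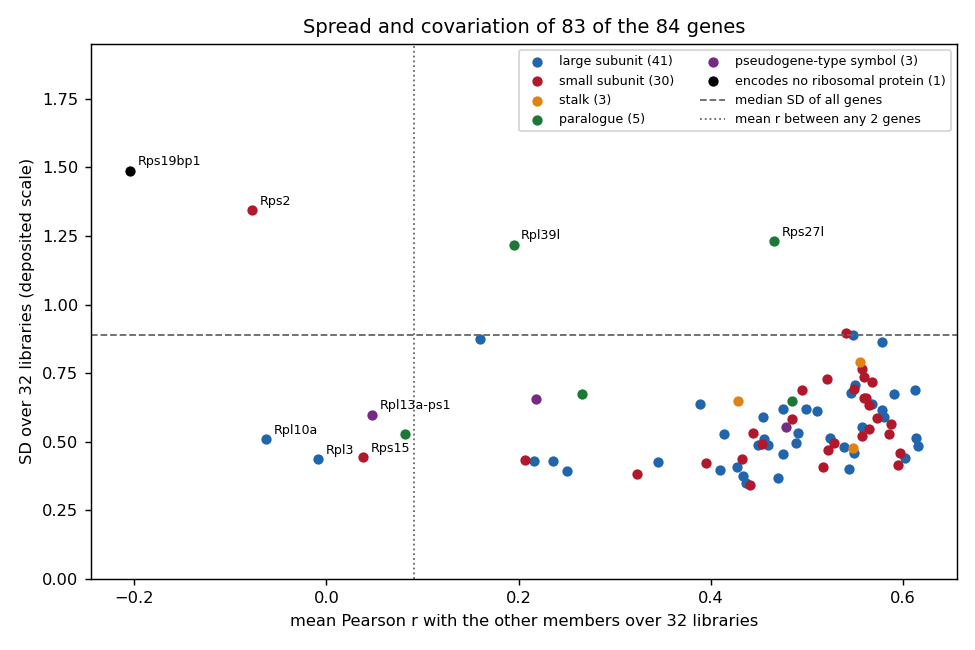
SD over 32 libraries (vertical axis, deposited scale) against the mean Pearson r with the other members (horizontal axis) for 83 of the 84 genes, coloured by class. Dashed and dotted lines mark the median SD of all genes, 0.890, and the mean r between any 2 genes, 0.091. Most members lie at low SD and r above 0.4, and Rps19bp1 and Rps2 lie at wide SD and r below 0.

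The 10 genes outside the members whose scores followed the mean member score most closely over the 32 libraries were Gm11968, Gm15450, Wdr89, Stom, Hspe1, Scn8a, Ms4a6d, Eef1b2, Fxyd5 and Siva1, with r from 0.927 for Gm11968 to 0.876 for Siva1. Within populations and strains r was 0.876 for Gm11968 and 0.554 for Siva1. Eef1b2 encodes a subunit of the factor that exchanges the nucleotide on elongation factor eEF1A, and Hspe1 a mitochondrial chaperonin.

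Other genes of the translation apparatus were taken as fixed lists. Of 3 ribosomal proteins with other symbols, Gnb2l1, the signalling scaffold of the small subunit, was higher by 0.81 ± 0.30 in differentiated (adjusted p = 0.035) and 0.92 ± 0.32 in undifferentiated macrophages (adjusted p = 0.023) against tumour microglia, and neither call held with library medians subtracted. Of all genes, 37% were called higher in differentiated and 36.7% in undifferentiated macrophages as deposited. Of 17 translation factors and related genes with oligopyrimidine messages, 3 (17.6%) were higher in differentiated and 1 (5.88%) in undifferentiated macrophages. With medians subtracted 0 were higher and 3 (17.6%) lower in each. Of all genes, 19.8% were then higher and 19.2% lower in differentiated macrophages, and 16.7% and 16.3% in undifferentiated macrophages. Tpt1, an abundant growth-related protein, was higher in both, by 1.01 ± 0.33 in differentiated (adjusted p = 0.018) and 1.16 ± 0.35 in undifferentiated macrophages (adjusted p = 0.010), calls that were lost with medians subtracted. In tumour against normal microglia 2 of the 17 (11.8%) were higher and 0 lower, against 4.66% and 12% of all genes. The 2 were the elongation factor Eef1a1, by 1.13 ± 0.28 (adjusted p = 0.0091), and the nucleolar chaperone Npm1, by 1.26 ± 0.34 (adjusted p = 0.014). With medians subtracted 6 (35.3%) were higher and 0 lower, against 7.72% and 7.60% of all genes.

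Genes of the machinery that makes ribosomes, and of initiation, are set beside all genes, of which 37% were called higher and 6.35% lower in differentiated and 36.7% and 5.19% in undifferentiated macrophages as deposited, and 19.8% and 19.2%, and 16.7% and 16.3%, with medians subtracted. Between tumour and normal microglia 4.66% of all genes were called higher and 12% lower, and 7.72% and 7.60% with medians subtracted. Of 33 measured assembly factors, 1 was higher and 2 lower in differentiated macrophages, with a median of -0.24, and 0 were higher and 1 lower in undifferentiated macrophages, with a median of -0.28. With library medians subtracted 12 were lower in differentiated and 13 in undifferentiated macrophages, and 0 higher. Of 30 initiation factors, 0 were higher and 2 lower in differentiated macrophages, with a median of -0.41, and 1 was higher and 3 lower in undifferentiated macrophages, with a median of -0.26; with medians subtracted 18 and 15 were lower. Of 13 RNA polymerase I genes, 0 were higher and 2 lower in differentiated macrophages and 0 were called in undifferentiated macrophages, against 7 and 6 lower with medians subtracted. In tumour against normal microglia 4 of them were higher and 3 lower as deposited, and 4 were higher and 0 lower with medians subtracted. As deposited, the subunit Polr1b was at 2.35 ± 0.50 (adjusted p = 0.0033) and Cd3eap at -1.14 ± 0.36 (adjusted p = 0.032). Of the 33 assembly factors, 2 (6.06%) were higher and 1 lower there, and 3 (9.09%) and 0 with medians subtracted. Of the 30 initiation factors, 1 (3.33%) was higher and 0 lower there, and 2 (6.67%) and 0 with medians subtracted. Of 72 mitochondrial ribosomal protein genes, 8 were higher and 0 lower in tumour against normal microglia, led by Mrpl32 at 2.10 ± 0.38 (adjusted p = 0.0012), and 1 was higher and 4 lower in each macrophage comparison; with medians subtracted 17 were higher between the microglia, and 19 and 16 lower in differentiated and undifferentiated macrophages. Differences between lists were not tested.

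Among 17 measured regulators of ribosome synthesis, Myc, the transcription factor that drives it, was lower, at -1.49 ± 0.39 in differentiated (adjusted p = 0.0037) and -1.88 ± 0.41 in undifferentiated macrophages (adjusted p = 0.0010) against tumour microglia, and higher by 2.23 ± 0.38 in tumour against normal microglia (adjusted p = 0.00063). Those calls held with library medians subtracted, at -2.16 in differentiated macrophages, -2.60 in undifferentiated macrophages and 2.47 in tumour against normal microglia. Other regulators went the other way as deposited. Mlst8 was higher by 1.57 ± 0.47 in differentiated macrophages (adjusted p = 0.0091). Eif4ebp2 was higher by 1.48 ± 0.53 in undifferentiated macrophages (adjusted p = 0.029) and at -1.78 ± 0.49 in tumour against normal microglia (adjusted p = 0.017). In all, 3 regulators were higher and 3 lower in differentiated macrophages, 2 and 2 in undifferentiated macrophages, and 1 and 2 in tumour against normal microglia; with medians subtracted 0 were higher and 7 lower in each macrophage comparison, and 1 and 1 between the microglia, beside the same shares of all genes. Between the macrophage populations no gene of these lists was called.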

How the data were processed

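Cells were sorted from mouse brain and cDNA was made with a Clontech SMART-Seq v4 kit, per the labels' protocols. The tools FastQC, STAR 2.5.0a and RSEM 1.3.0 and the build mm9 are named in the submitters' processing notes. The authors deposited a table of signed scores for 17586 genes in 32 libraries, running from -6.50 to 6.92, with every gene at a mean of 0; no source used here gives the step that made them, their scale or the depth. The table spans 21 dimensions, so 11 sample directions hold no variation. Of these, 2 were the overall mean and the recipient strain, so a difference between strains over all populations is absent from the table.

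Every gene of the table entered a model in limma 3.58.1 (R 4.3.3), with no log, filter or pseudocount, robust empirical Bayes variances, 8 means of population and strain, the 11 directions as covariates and 15 residual degrees of freedom. Each comparison is the mean of its 2 strain contrasts, tested two-sided with Benjamini-Hochberg adjustment. A fitted difference therefore need not equal the difference of deposited means. The model was also run on simulated independent noise, which cannot show whether the real libraries meet its assumptions.

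The members, gene lists and tests were chosen with earlier results of these data known. Named members were the 3 called genes with the largest differences in each direction and comparison, the stalk genes, Rpsa, Rps6, Rpl5, Rpl11, Rps19, Rps14, Rpl26, the paralogues with their counterparts, and the members with the highest and lowest mean correlation. Other called members are listed by name, and Rps2, Rps13, Rpl35a and Rpl23a were named after their values were seen. In the fixed lists the called gene with the largest difference in each direction was eligible, and Eef1a1 was added after its value was seen. T cell markers were not analysed here, and the granulocyte and oligodendrocyte lists gave 1 of 1 and 0 of 3 markers called higher in differentiated and 1 of 1 and 0 of 3 in undifferentiated macrophages against tumour microglia. Start sites came from the RefSeq promoter table (GRCm38.p6) and coding sequences from GENCODE M21, as the longest open reading frame; no coordinates were taken from mm9. Values of 1 member are not reported here; counts, means and medians over the 84 genes include it.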

Additional observations from a re-analysis of the deposited data

Results flagged for a closer look

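Of 116 sets of 8 libraries, 10 held a library whose gap to its nearest neighbour was a large part of the whole range, where chance gives about 5%. Undifferentiated macrophage library 16 was high for Rpl3 at 1.134 (others -0.656 to 0.182) and for Rpl10 at 0.610 (others -0.170 to 0.152). Undifferentiated macrophage library 32 was low for Rpl5 at -0.796 (others -0.194 to 0.148) and for Rpl7 at -0.979 (others -0.024 to 0.815). Library 13 of the same population was low for Rplp2 at -0.537 (others 0.253 to 0.788). Differentiated macrophage library 12 was high for Rpl3 at 0.695 (others -0.393 to -0.063), and library 31 for Rpl36al at 0.916 (others 0.233 to 0.533). Tumour microglia library 30 was high for Rpl39 at 1.269 (others -0.901 to -0.178). Normal microglia library 25 was high for Rpl36a at 0.876 (others -1.369 to -0.497), and library 9 for Rpl39 at 0.628 (others -1.247 to -0.551).

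Rps27l differed between strains in tumour against normal microglia, by -4.629 ± 1.17 in WT minus Pep3 mice (adjusted p = 0.028). Strain went with experiment number, and these cannot be told apart. Normal microglia libraries 10, 18 and 26 of Pep3 mice and library 1 of WT mice kept under 50% of their own variation.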

How the results depend on the processing

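No paired analysis was possible because no 2 libraries share a number in the labels; the experiment number is fixed by population and strain, whose means are in the model. Counts of called members are given as higher and lower, with genes of the whole table called either way after them. For tumour against normal microglia (6 and 0; 2936 genes) the higher count was 16 without covariates, 23 with library medians subtracted, 1 with only these 2 populations, 1 with library weights, and 0 without the libraries that kept under 50%, in WT mice and in Pep3 mice, beside 3592, 2694, 473, 745, 0, 0 and 0 genes. For differentiated macrophages against tumour microglia (16 and 0; 7626 genes) the higher count was 32, 1, 0, 16, 0, 0 and 0 under the same settings, and the lower count was 2 without covariates and 8 with medians subtracted, beside 9086, 6871, 55, 6482, 0, 0 and 0 genes. For undifferentiated macrophages against tumour microglia (11 and 1; 7361 genes) the higher count was 19, 0, 0, 9, 0, 0 and 0, and the lower count 2, 18, 0, 2, 0, 0 and 0, beside 8618, 5796, 9, 6435, 3, 0 and 0 genes.

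Chosen after seeing the data, fits without covariates gave 0 (tumour against normal microglia), 14 (differentiated) and 6 (undifferentiated macrophages) higher members without the libraries that kept under 50%, 0, 8 and 1 in WT mice, where 0 were lower in undifferentiated macrophages, and 7, 7 and 6 in Pep3 mice, beside 133, 5456 and 5323, 173, 3089 and 1831, and 2388, 6657 and 6462 genes. Within experiment 3 they gave 12 higher members in differentiated and 3 in undifferentiated macrophages against tumour microglia, and within experiment 4 they gave 5 and 3, with 0 lower in each, beside 6864 and 6368 genes and 3166 and 1677 genes. Leaving out single libraries gave 0 to 10, 5 to 27 and 2 to 15 higher and 0 to 0, 0 to 1 and 0 to 2 lower members in these comparisons (in undifferentiated macrophages 0 without library 21, 28 or 30), and 0 to 0 both ways between the macrophage populations. The higher count in undifferentiated macrophages fell by over 1.5 times without library 2, 3, 5, 6, 8, 11, 14, 16, 18, 21, 27, 29, 31 or 32, and in differentiated macrophages without 4, 6, 8, 11, 27, 28, 29 or 31. Between the macrophage populations every setting run gave 0.

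In WT mice alone the difference reversed for Rpl15 (-0.28) and Rps27l (-0.50) in tumour against normal microglia and for Rplp1 (-0.16), Rplp2 (-0.81) and Rps9 (-0.19) in undifferentiated macrophages; that fit left 3 residual degrees of freedom. None of these reversed in WT mice without covariates, at 1.05, 1.03, 0.90, 0.86 and 1.17, none called. The mean member score with medians subtracted was 0.086 in differentiated macrophages, -0.134 in undifferentiated macrophages and 0.253 in tumour microglia, and scaled to an SD of 1 per gene it was 0.630 in differentiated macrophages and -0.788 in normal microglia. The cause of these changes was not tested. Depth is unknown, so its limit on precision could not be assessed.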
